A study of Homo sapiens with 6 samples.

Results

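The genes described here make ribosomes or process RNA in the nucleolus. They comprise RNA polymerase I and its initiation factors, the small nucleolar ribonucleoproteins (snoRNPs) that modify ribosomal RNA, assembly factors of the small (40S) and large (60S) ribosomal subunits, other nucleolar proteins, and the RNA exosome, the complex that trims and degrades RNA from its 3′ end. They were chosen by name as 45 genes, and a gene counted as measured where the array annotation gave at least 1 probe set to it alone. By that rule 41 of the 45 genes were measured, with 91 of 54613 probe sets, out of 19775 genes on the arrays. NOP56 and DKC1 of the snoRNPs, and BOP1 and GNL3 of 60S assembly, lay only on probe sets annotated to several genes and have no value here.

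Expression was measured on Affymetrix U133 Plus 2.0 arrays in 3 cultures of drug-tolerant persisters (DTPs) and 3 of parental cells. Both groups were PC9, a human non-small cell lung cancer line with an activating EGFR mutation, transfected with a GFP vector. DTPs survived 9 days of erlotinib, an EGFR kinase inhibitor given at 2 µM from 80% confluency on, and were harvested on day 10, whereas parental cells in DMSO were harvested on day 3 at 100% confluency by the protocol in the labels. The study's methods have DMSO given for 9 days too, so the vehicle time is not settled, and drug, time in culture and cell density cannot be told apart where the protocol holds. The methods describe replicates as biological in general, and the labels do not say whether the cultures of a group were independent. The p-values reflect the spread between these samples alone, which may be technical. DTPs are a surviving fraction, and loss of other cells cannot be told apart from change within cells, so rose and fell compare group means.

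In a growing cell most transcription serves ribosomes. RNA polymerase I copies the ribosomal DNA repeats into 1 long precursor, snoRNPs guide its methylation and pseudouridylation, and the processome and the 60S assembly factors fold and cut it while ribosomal proteins join. The exosome trims the 3′ end of the 5.8S rRNA and removes the spacer fragments, and it also degrades many other nuclear and cytoplasmic RNAs. Growth factor signalling through ERK and mTOR, and the transcription factor MYC, are known to raise the output of this pathway.

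Most of these genes were lower in DTPs than in parental cells, by modest amounts. Genes were called where the adjusted p was below 0.05 and the fold exceeded 1.5 (limma, Benjamini-Hochberg adjustment over all genes). Both thresholds are those of the methods. Of the 41 genes, 13 were called lower (31.7%), 1 was called higher (2.44%) and 27 were neither, where 6.13% of all genes were called lower and 8.08% higher. On the adjusted p alone, 30 of the 41 fell (73.2%) and 1 rose, beside 24.0% and 20.4% of all genes. In 31 genes all 3 DTP arrays lay below all 3 parental arrays, which held for 29.8% of all genes, and in 2 genes all DTP arrays lay above, beside 23.9% of all genes. The median log2 fold change, DTP minus parental, was -0.36 over the 41 genes and -0.05 over all genes. A total of 38 of the 41 fold changes were negative, beside 11635 of all 19775. The count was 34 of 41 with each array centred on the ribosomal proteins of the cytosol. It was 30 with centring on the spike-in controls of the hybridization. Under these centrings 8 and 7 of the 41 genes were called lower, beside 4.67% and 4.02% of all genes. POLR1D, FBL, WDR43, NOB1, LYAR, EXOSC5 and EXOSC8 were called under both.

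**Figure D1:**
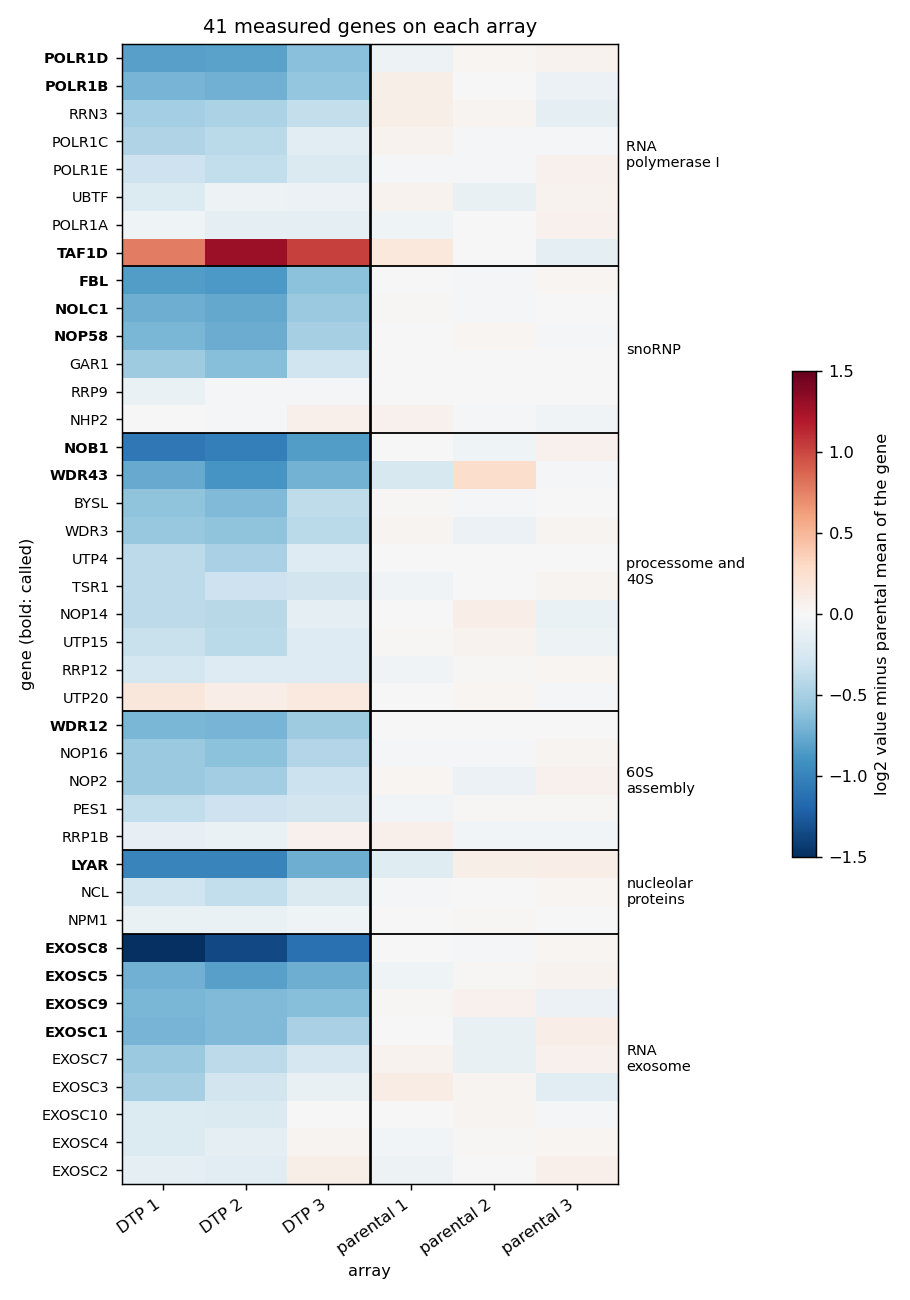
Heat map of the 41 measured genes (rows, grouped by role, called genes in bold) on the 3 DTP and 3 parental arrays (columns), coloured by the log2 value minus the gene's parental mean. Most rows are blue on all DTP arrays, EXOSC8 is the darkest, TAF1D is the only called row in red, and DTP 3 is paler than DTP 1 and DTP 2 in most rows.

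On every DTP array the mean of the 41 genes was below that of every parental array. The mean log2 distance from the parental mean was -0.46, -0.44 and -0.29 on DTP arrays 1, 2 and 3, while the mean of all 19775 genes lay within 0.01 of 0 on the same arrays. Quantile normalization gives all arrays a common distribution, so the processing largely sets this mean of all genes. The size of the difference was not the same on all DTP arrays. Among the 30 genes that fell, DTP array 3 was the DTP array nearest to the parental mean in 29 (96.7%), the exception being EXOSC5. It was nearest in 2714 of the 4754 genes of the whole array that fell (57.1%). Among the other genes of the same pathways, described below, it was nearest in 52 of the 58 that fell (89.7%). Without DTP array 3 a total of 17 of the 41 genes were called lower, beside 6.84% of all genes. The additional ones were GAR1, WDR3, BYSL and NOP16, and the median log2 fold change of the 41 genes was -0.44.

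A sequence feature of the promoters, which the choice of genes did not use, was examined next. The sequence CACGTG, the canonical E-box, reads the same on both strands and is bound by MYC with MAX and by related factors. It was searched in RefSeq windows of GRCh38.p14 that span 250 bases before to 50 bases after the gene start. A window was given for 37 of the 45 listed genes, and not for POLR1E, NOP58, NOLC1, RRP12, BOP1, RRP1B, EXOSC1 and EXOSC4. The motif was present for 13 of these 37 genes (35.1%) and for 1525 of the 13455 protein-coding genes measured by the arrays that had a window (11.3%). Over single windows it was in 2548 of all 35116 (7.26%). All other counts here, including those given as windows below, count each gene once. Among the 117 other genes of the same pathways that are described below, it was in 28 of 103 windows (27.2%). It was in 4 of 10 windows of genes called lower and in 8 of 24 windows of measured genes that were not. By role it was in 0 of 7 polymerase I windows, 3 of 6 of snoRNP genes, 5 of 9 of the processome, 3 of 5 of 60S assembly, 1 of 3 of nucleolar proteins and 1 of 7 of the exosome. A match is a run of letters in the window and no evidence of binding, and MYC binding was not measured.

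The sites of the 4 genes called lower that hold the motif are printed 5′ to 3′ on the strand of the gene, followed by RRP9 and UTP20, with the motif in capitals. RRP9 and UTP20 were chosen after their values were seen, as the only measured genes with the motif that did not pass the adjusted p. The 6 other measured genes with the motif, BYSL, GAR1, NOP2, UTP4, PES1 and NOP14, fell on the adjusted p without being called.
FBL: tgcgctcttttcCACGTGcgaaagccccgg
WDR43: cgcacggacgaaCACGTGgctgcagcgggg
LYAR: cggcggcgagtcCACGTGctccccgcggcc
EXOSC5: taaacgctaagcCACGTGcggacgcccagg
EXOSC5: caactgcagccgCACGTGggctcggcgcga
RRP9: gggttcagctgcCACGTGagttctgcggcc
UTP20: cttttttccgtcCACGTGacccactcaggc
In GRCh38.p14 these stretches lie at chr19:39846356-39846385 (- strand) for FBL, chr2:28894658-28894687 (+ strand) for WDR43, chr4:4290068-4290097 (- strand) for LYAR, chr19:41397431-41397460 (- strand) and chr19:41397328-41397357 (- strand) for EXOSC5, chr3:51941892-51941921 (- strand) for RRP9 and chr12:101280083-101280112 (+ strand) for UTP20. All lie within the promoter window, close to the annotated start of the gene.

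Of the 8 measured polymerase I genes, 2 were called lower, 1 was called higher and 5 were neither, with a median log2 fold change of -0.32. POLR1B, the second-largest subunit of the enzyme and part of its active centre, had log2 values of 9.61, 9.60 and 9.74 in DTPs, against 10.41, 10.32 and 10.22 in parental cells. The groups did not overlap, and POLR1B was 1.59-fold lower (log2 fold change -0.67 ± 0.07 SE, adjusted p = 9.94e-06) in DTPs. It was measured by 4 probe sets, of which only this one was called, and the mean over all 4 was -0.41. POLR1D, a small subunit shared between polymerases I and III, had 11.41, 11.42 and 11.60 in DTPs, against 12.14, 12.25 and 12.27 in parental cells. Its DTP arrays lay well below the parental ones, at 1.68-fold lower (log2 fold change -0.74 ± 0.08 SE, adjusted p = 4.07e-06), and all 3 of its probe sets were called lower.

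TAF1D moved the other way. It encodes a subunit of SL1, the factor that brings polymerase I to the ribosomal DNA promoter, and its log2 values were 8.60, 9.10 and 8.85 in DTPs, against 7.98, 7.81 and 7.68 in parental cells. Every DTP array was above every parental array, and TAF1D was 2.04-fold higher (log2 fold change 1.03 ± 0.12 SE, adjusted p = 1.11e-05) in DTPs. This value rests on 1 probe set, since the others that detect TAF1D are annotated also to the snoRNAs in its introns and were not used. TAF1D was called higher under every alternative tried.

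RRN3, the initiation factor through which growth signals reach polymerase I, had 10.60, 10.64 and 10.76 in DTPs, against 11.21, 11.16 and 10.98 in parental cells. All DTP arrays were below all parental arrays, but the change stayed under the fold minimum (log2 fold change -0.45 ± 0.08 SE, adjusted p = 0.000444). RRN3 has near-identical pseudogene copies that its probes may also detect. POLR1C, the partner of POLR1D in both polymerases, had 9.84, 9.89 and 10.12 in DTPs, against 10.34, 10.27 and 10.26 in parental cells. It too fell without reaching the fold minimum (log2 fold change -0.34 ± 0.08 SE, adjusted p = 0.00424), as did the polymerase I-specific subunit POLR1E (log2 fold change -0.30 ± 0.07 SE, adjusted p = 0.00358). The largest subunit POLR1A and the upstream binding factor UBTF did not pass the test, with log2 fold changes of -0.12 (95% interval -0.26 to 0.03) and -0.12 (95% interval -0.28 to 0.04), and their groups overlapped.

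**Figure D2:**
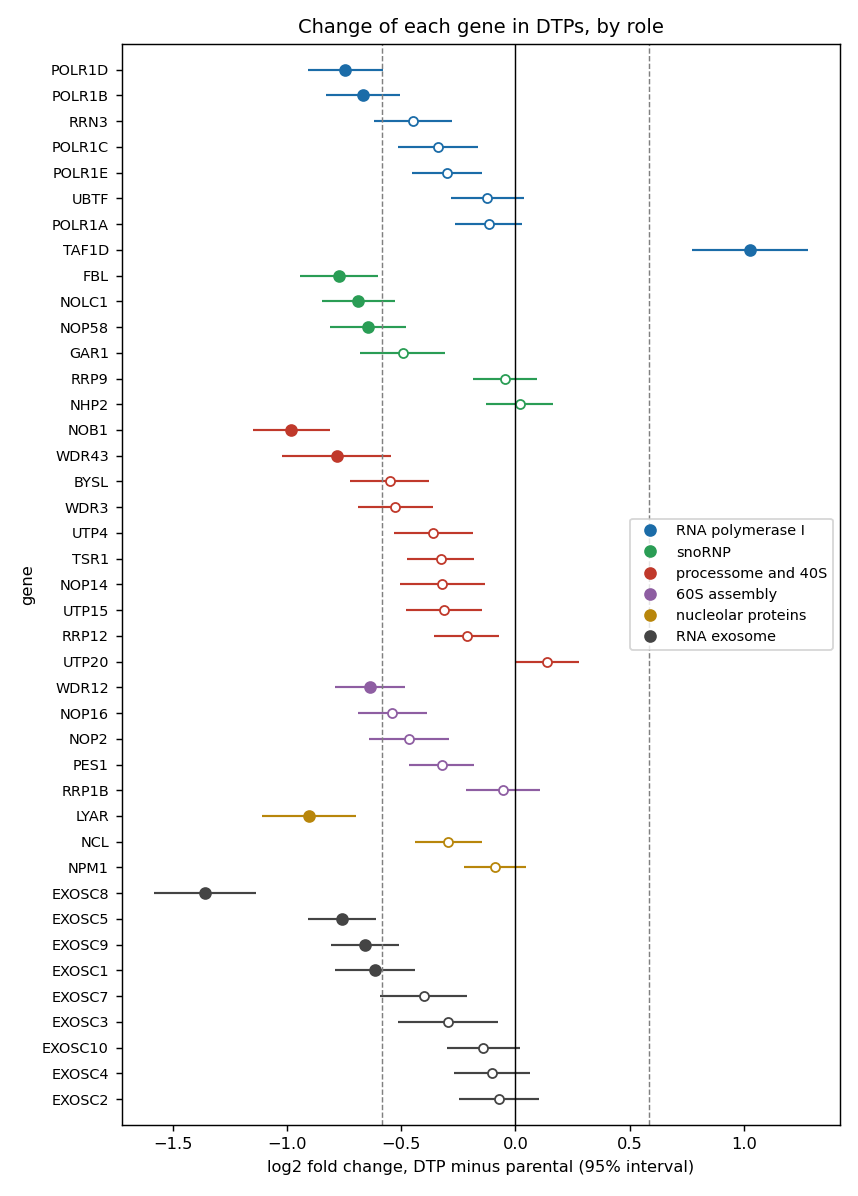
Log2 fold change (DTP minus parental, x axis) of each measured gene with its 95% interval, grouped by role, n = 3 arrays per group, with dashed lines at the 1.5-fold minimum and filled symbols for called genes. Intervals of the 13 genes called lower lie wholly below 0, EXOSC8 lies furthest to the left at -1.36, and TAF1D is the only gene whose interval lies wholly above 0.

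Among the 6 measured snoRNP genes 3 were called lower and none higher, with a median of -0.57. Fibrillarin (FBL), the methyltransferase of the box C/D snoRNPs that methylates ribose in rRNA, had log2 values of 12.07, 12.06 and 12.30 in DTPs, against 12.92, 12.88 and 12.94 in parental cells. It was 1.71-fold lower (log2 fold change -0.77 ± 0.08 SE, adjusted p = 3.98e-06) with no overlap. NOP58, a scaffold protein of the same particles, had 11.11, 11.05 and 11.30 in DTPs, against 11.80, 11.83 and 11.78 in parental cells. Its DTP arrays were all below its parental arrays, and NOP58 was 1.56-fold lower (log2 fold change -0.65 ± 0.08 SE, adjusted p = 1.69e-05). Both of these genes were thus lower on each DTP array than on any parental array.

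NOLC1, a phosphoprotein that chaperones snoRNPs between Cajal bodies and the nucleolus, had 11.06, 11.03 and 11.24 in DTPs, against 11.82, 11.78 and 11.80 in parental cells. The parental arrays lay close together, the DTP arrays were all lower, and NOLC1 was 1.61-fold lower (log2 fold change -0.69 ± 0.07 SE, adjusted p = 6.8e-06), with 3 of 3 probe sets called. Of the box H/ACA proteins, which guide pseudouridylation, GAR1 and NHP2 differed in their values. GAR1 had 10.20, 10.09 and 10.43 in DTPs, against 10.72, 10.73 and 10.73 in parental cells, and its fall was smaller than the fold minimum (log2 fold change -0.49 ± 0.09 SE, adjusted p = 0.000389). NHP2 had overlapping groups and a log2 fold change of 0.02 (95% interval -0.13 to 0.17). The difference between GAR1 and NHP2 was not tested. RRP9, a protein specific to the U3 snoRNP, had 9.44, 9.53 and 9.52 in DTPs, against 9.54, 9.55 and 9.54 in parental cells. Its groups did not overlap, yet they lay close together and the test did not call a difference, at -0.05 (95% interval -0.19 to 0.09).

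Of the 10 processome and 40S genes 9 fell on the adjusted p, 2 of these were called lower, none rose and the median was -0.34. NOB1, the endonuclease that makes the final cut at the 3′ end of 18S rRNA, had 10.71, 10.76 and 10.94 in DTPs, against 11.78, 11.72 and 11.85 in parental cells. The DTP arrays were all well below the parental arrays, and NOB1 was 1.97-fold lower (log2 fold change -0.98 ± 0.08 SE, adjusted p = 4.58e-07), the second-largest fall among the 41 genes. WDR43, a subunit of the processome that binds the nascent precursor, had 9.64, 9.51 and 9.70 in DTPs, against 10.15, 10.66 and 10.38 in parental cells. It was 1.72-fold lower (log2 fold change -0.78 ± 0.11 SE, adjusted p = 6.97e-05) without overlap, and its parental arrays had the widest spread of the 41 genes, between 10.15 and 10.66.

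BYSL (bystin), which acts in late maturation of the 40S subunit, had 9.50, 9.44 and 9.72 in DTPs, against 10.12, 10.08 and 10.11 in parental cells. WDR3, another WD-repeat protein of the processome, had 10.79, 10.76 and 10.96 in DTPs, against 11.41, 11.28 and 11.41 in parental cells. In both genes the groups did not overlap, and both fell by less than the fold minimum (log2 fold change -0.55 ± 0.08 SE, adjusted p = 9.34e-05 for BYSL and log2 fold change -0.53 ± 0.08 SE, adjusted p = 9.6e-05 for WDR3). A second, dimmer probe set of WDR3 had a log2 fold change of -0.01. The processome subunits UTP4, NOP14 and UTP15, the 40S factor TSR1 and the pre-ribosome export factor RRP12 also fell, with log2 fold changes between -0.36 and -0.21, and RRP12 was near 0 (0.003) in the mean of its 5 probe sets. UTP20, a large scaffold protein, was the exception in this group, and its array values are given because of its direction. All 3 of its DTP arrays, at 9.31, 9.24 and 9.29, were above the parental arrays at 9.13, 9.17 and 9.12, and the test did not call this difference, at 0.14 (95% interval -0.0030 to 0.28).

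Of the 5 measured 60S assembly genes 1 was called lower, 4 fell on the adjusted p and none rose, with a median of -0.47. WDR12, which with PES1 and BOP1 forms a complex needed for 28S and 5.8S rRNA processing, had 10.55, 10.54 and 10.71 in DTPs, against 11.24, 11.24 and 11.22 in parental cells. It was 1.55-fold lower (log2 fold change -0.64 ± 0.07 SE, adjusted p = 8.64e-06) without overlap, and 2 of its 3 probe sets were called. PES1 fell less (log2 fold change -0.32 ± 0.07 SE, adjusted p = 0.00135), and the mean of its 2 probe sets was -0.18.

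NOP16, a nucleolar 60S factor known in human cells as a MYC target, had 10.72, 10.66 and 10.83 in DTPs, against 11.26, 11.25 and 11.32 in parental cells. The groups were apart and the fall was under the fold minimum (log2 fold change -0.54 ± 0.07 SE, adjusted p = 3.71e-05), while another of its 4 probe sets was called lower (-0.63) and the remaining pair lay near 0 (0.02 and -0.08). NOP2, a methyltransferase that modifies a cytosine of 28S rRNA, had 10.02, 10.05 and 10.26 in DTPs, against 10.61, 10.49 and 10.64 in parental cells. It fell in the same way (log2 fold change -0.47 ± 0.08 SE, adjusted p = 0.000381). RRP1B, a 60S processing factor, did not pass the test, with overlapping groups and a log2 fold change of -0.06 (95% interval -0.22 to 0.11).

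Of the 3 other nucleolar proteins, 1 was called lower, 2 fell on the adjusted p and the median was -0.30. LYAR, a nucleolar zinc finger protein that promotes rRNA processing, had 9.48, 9.47 and 9.73 in DTPs, against 10.28, 10.55 and 10.56 in parental cells. The groups did not overlap, LYAR was 1.87-fold lower (log2 fold change -0.90 ± 0.09 SE, adjusted p = 5.47e-06), and both of its probe sets were called. Nucleolin (NCL), which binds pre-rRNA and nucleolar chromatin, had 13.06, 12.99 and 13.14 in DTPs, against 13.33, 13.35 and 13.38 in parental cells, a fall under the fold minimum (log2 fold change -0.30 ± 0.07 SE, adjusted p = 0.00314). Nucleophosmin (NPM1), a histone and assembly chaperone, had 14.06, 14.06 and 14.09 in DTPs, against 14.16, 14.17 and 14.15 in parental cells. The DTP arrays of NPM1 were lower by a small distance that the test did not call, at -0.09 (95% interval -0.23 to 0.05), while its 2 other probe sets fell by 0.23 and 0.49 on the log2 scale. NPM1 has many processed pseudogenes, so its probes may also detect other transcripts.

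The exosome genes held the largest fall, and the fitted changes of the subunits ranged widely. Of 9 measured subunits 4 were called lower, 6 fell on the adjusted p, none rose, and the median was -0.40. EXOSC8, EXOSC5, EXOSC9, EXOSC7 and EXOSC4 belong to the ring through which RNA is threaded, EXOSC1, EXOSC2 and EXOSC3 form the cap that receives it, and EXOSC10 is the nuclear exonuclease attached to the complex.

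EXOSC8 had log2 values of 9.83, 10.09 and 10.32 in DTPs, against 11.43, 11.42 and 11.47 in parental cells. The highest DTP array was more than 1 log2 unit below the lowest parental array, and EXOSC8 was 2.57-fold lower (log2 fold change -1.36 ± 0.10 SE, adjusted p = 2.59e-07), the only one of the 41 genes called lower at a fold over 2. The EXOSC8 value rests on 1 probe set. EXOSC5, its neighbour in the ring, had 9.91, 9.82 and 9.90 in DTPs, against 10.56, 10.65 and 10.69 in parental cells. Here the DTP arrays lay close together and all below the parental ones, at 1.69-fold lower (log2 fold change -0.76 ± 0.07 SE, adjusted p = 1.39e-06). EXOSC9 had 10.11, 10.14 and 10.16 in DTPs, against 10.82, 10.86 and 10.71 in parental cells. All DTP arrays were lower here too, and EXOSC9 was 1.58-fold lower (log2 fold change -0.66 ± 0.07 SE, adjusted p = 5.06e-06).

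EXOSC7 had 9.71, 9.88 and 10.02 in DTPs, against 10.33, 10.15 and 10.33 in parental cells. It fell by less than the fold minimum (log2 fold change -0.40 ± 0.09 SE, adjusted p = 0.00223), and its second probe set had a log2 fold change of 0.14. EXOSC4 had overlapping groups and did not pass the test, at -0.10 (95% interval -0.27 to 0.06). Within the ring the fitted changes thus ran from -1.36 to -0.10, and the intervals of EXOSC8 and EXOSC4 did not meet.

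In the cap, EXOSC1 had 9.48, 9.51 and 9.69 in DTPs, against 10.18, 10.07 and 10.27 in parental cells on its brightest probe set. The groups did not overlap there and the gene was called lower, at 1.53-fold lower (log2 fold change -0.62 ± 0.08 SE, adjusted p = 4.06e-05). The other probe sets of EXOSC1 were dim, and 1 of them was called higher (log2 fold change 0.79), so the mean over its 3 probe sets was 0.01 and its direction depends on the probe set. EXOSC3 had 8.14, 8.36 and 8.53 in DTPs, against 8.75, 8.69 and 8.49 in parental cells. DTP array 3 lay within the parental range, and the difference passed the adjusted p only (log2 fold change -0.30 ± 0.10 SE, adjusted p = 0.0295). EXOSC2 and the exonuclease EXOSC10 did not pass, at -0.07 (95% interval -0.25 to 0.11) and -0.14 (95% interval -0.30 to 0.02).

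**Figure D3:**
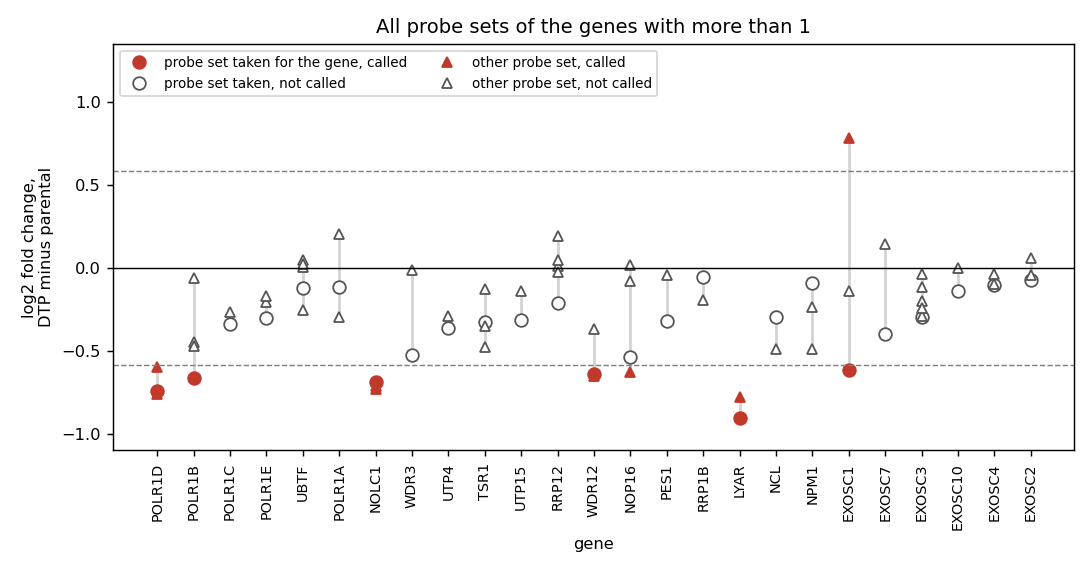
Log2 fold change (DTP minus parental, y axis) of every probe set of the 25 genes that have more than 1 (x axis), with circles for the probe set taken for the gene, triangles for the others, filled red symbols where called, and dashed lines at the 1.5-fold minimum. All probe sets of POLR1D, NOLC1 and LYAR lie below the lower line, while those of EXOSC1 lie on both sides of 0.

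Taken over single probe sets, 20 of the 91 were called lower and 2 higher, beside 4.93% and 7.56% of all 54613 probe sets. On the adjusted p alone 53 of the 91 fell and 2 rose, beside 20.1% and 18.6% of all. In 56 probe sets all DTP arrays were below all parental arrays (27.5% of all probe sets), and in 4 they were above (22.4% of all). A total of 25 genes had several probe sets and 16 had 1. Of the genes called lower, FBL, NOP58, WDR43, NOB1, EXOSC5, EXOSC8 and EXOSC9 had only 1. Probe sets of a gene are not replicates, since they read the same RNA, and they differ in brightness and in the part of the transcript they detect. The 2 called higher were those of TAF1D and the dim one of EXOSC1.

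Other genes of the same pathways, listed from their known roles, were lower more often than higher. Of 117 such genes 111 were measured, of which 12 were called lower (10.8%), none higher and 99 neither, with a median log2 fold change of -0.24, beside 6.13% and 8.08% of all genes called lower and higher. On the adjusted p 58 fell (52.3%) and 10 rose (9.01%), beside 24.0% and 20.4% of all genes. The largest change was in ZCCHC8, a subunit of the nuclear exosome targeting complex, which had 9.53, 9.56 and 9.68 in DTPs, against 10.99, 10.97 and 11.02 in parental cells. Its arrays were tightly grouped and far apart between conditions, at 2.64-fold lower (log2 fold change -1.40 ± 0.07 SE, adjusted p = 4.84e-09).

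For 60S assembly, the largest falls were in RSL24D1 (2.05-fold), which holds a place later taken by a ribosomal protein, RPF2 (1.96-fold), which brings in the 5S ribonucleoprotein, and NOC3L (1.79-fold), with log2 fold changes of -1.03, -0.97 and -0.84. Of the 40S factors the kinase RIOK1 (1.76-fold), the NOB1 partner PNO1 (1.72-fold) and KRR1 (1.58-fold) were called lower. For polymerase I, its cleavage subunit POLR1H (1.97-fold) and the SL1 subunit TAF1B (1.53-fold) were called lower. TAF1B is a partner of TAF1D in SL1. Of the other SL1 subunits on this list, TAF1A fell and TAF1C rose on the adjusted p, without being called (log2 fold changes -0.45 and 0.48). In the mean of all their probe sets, 6 for each, POLR1H and KRR1 had smaller log2 fold changes of -0.30 and -0.26. The adjusted p of the 8 genes named here as called lower was at most 4.3e-05. None of the 8 other snoRNP factors was called, and on the adjusted p 3 of them fell and 2 rose. Of the 7 other polymerase I genes 3 fell and 2 rose on it. Of the 13 other exosome genes 6 fell and 3 rose, and only ZCCHC8 was called. Of the 37 other processome genes 19 fell and 3 rose, and of the 46 for 60S assembly 27 fell and none rose. Among all genes 24.0% fell and 20.4% rose.

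Ribosomal protein genes were set beside these because they encode the substrate of the pathway. Among 61 cytosolic ribosomal protein genes 1 was called lower (1.64%) and 2 higher (3.28%), beside 6.13% and 8.08% of all genes. Their median log2 fold change was -0.11. On the adjusted p 16 of them fell (26.2%), close to the 24.0% of all genes, while in 44 (72.1%) all DTP arrays lay below all parental arrays, beside 29.8% of all genes. Among 75 mitochondrial ribosomal protein genes, whose products act in another ribosome, 2 were called lower (2.67%) and 1 higher (1.33%), also less often than among all genes. On the adjusted p 45 of these fell (60%), 47 had all DTP arrays below all parental arrays (62.7%), and the median was -0.24. Means per array were -0.12, -0.09 and -0.07 for cytosolic and -0.28, -0.26 and -0.11 for mitochondrial ribosomal proteins on DTP arrays 1, 2 and 3, beside -0.30, -0.29 and -0.16 for the 111 other pathway genes.

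**Figure D4:**
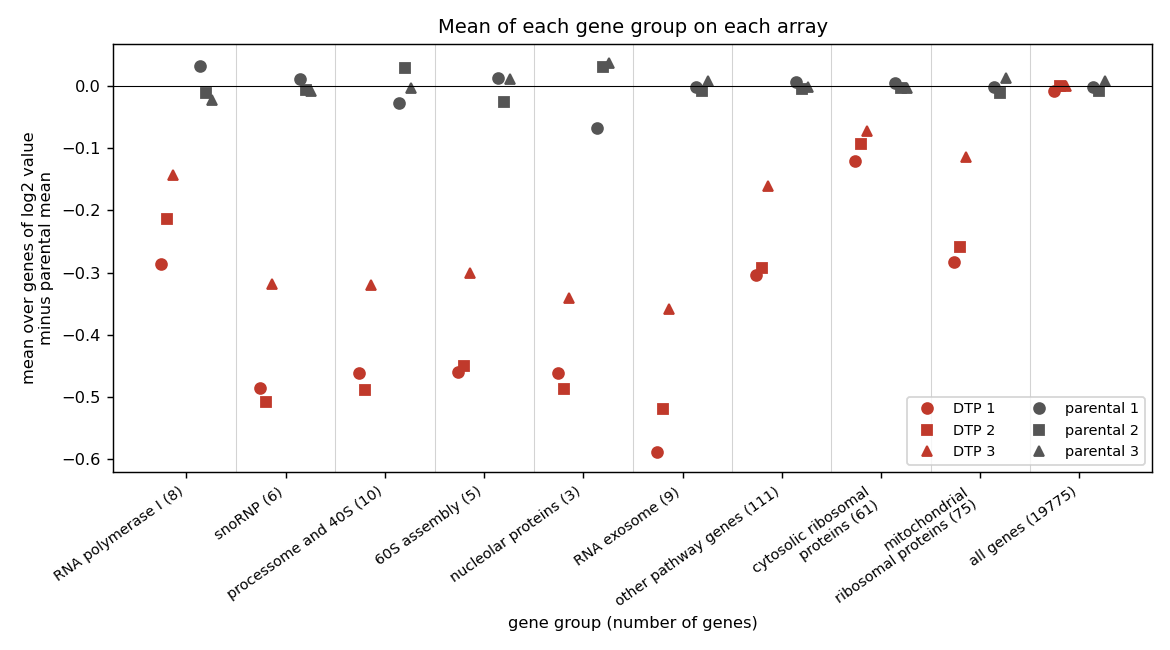
Mean log2 distance from the parental mean (y axis) for each gene group (x axis, number of genes in parentheses) on each array, DTP arrays in red and parental arrays in grey. In each of the 6 roles and in each related list all DTP points lie below all parental points, with DTP 3 highest of the DTP points, while the points of all genes lie close together near 0, where the normalization largely sets them.

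Array quality and cell identity were checked because they bear on all of these values. Array medians lay between 7.27 and 7.32. Pearson's r over probe sets was 0.9968 to 0.9979 in the 6 array pairs of the same group and 0.9701 to 0.9754 in the 9 pairs between groups. The 3′ minus 5′ log2 difference of the β-actin control probe sets, a sign of RNA integrity, averaged 0.06 in DTPs and 0.17 in parental cells, without overlap, and that of GAPDH averaged -0.18 in DTPs and -0.15 in parental cells (exact permutation test, two-sided, p = 0.10 for each, the smallest that 3 against 3 arrays allow). The part of this difference in the results was not tested. All 7 epithelial markers were above the median probe set value of 7.29, and KRT7 was called higher in DTPs (1.96-fold). The others were not called and were mixed in direction. On the adjusted p KRT8 and KRT19 rose (log2 fold changes 0.45 and 0.36) and EGFR and EPCAM fell (-0.33 and -0.19). KRT18 and CDH1 did not pass it. Of the 3 lung lineage markers, NKX2-1 was below that median in both groups and NAPSA was above it in both (7.82 in DTPs and 7.75 in parental cells). SFTPB was below it in DTPs (7.13) and above it in parental cells (7.59). It fell on the adjusted p without being called (log2 fold change -0.46). Of the fibroblast markers 4 of 5 were below that median in both groups, as were 3 of 4 measured blood cell markers. None of the 3 endothelial markers was below it, and PECAM1 was called lower in DTPs. The log2 of the summed endothelial markers lay between 9.96 and 10.20 in DTPs and between 10.44 and 10.65 in parental cells, and that of the fibroblast markers between 9.05 and 9.22 in DTPs and between 9.09 and 9.27 in parental cells. Any part of such markers in the results was not tested.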

How the data were processed

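The values deposited by the authors are on the log2 scale, 1 per probe set and array. The submitters' processing notes name RMA and affy, and the methods name quantile normalization. Their versions and a genome build are not given in the sources. RMA gives no detection call. Quantile normalization hides a change of total mRNA per cell. Precision is limited by the 3 arrays in each group.

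Of 54675 rows, 62 were controls. Of the other 54613 probe sets, a table of the array's annotation gave 1 symbol for 41091, several for 1801 and none for 11721. The brightest probe set of each gene was taken, without the suffix _x_at (cross-hybridizing) where another existed, which gave 19775 genes. DTPs were compared with parental cells by limma 3.58.1 in R 4.3.3 (lmFit, eBayes, two-sided), over genes and over probe sets, and checked on simulated data.

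The members and lists were chosen with earlier results of these data known. Array values were given for called members and, in each role, the 2 uncalled ones with the largest change, and for UTP20, chosen after its values were seen. Up to 3 called genes per role were named from the wider list. TAF1A and TAF1C, which were not called, were added after their values were seen, as the other SL1 subunits on it. Promoters came from RefSeq (GRCh38.p14). The alternatives were a replicate block, leaving out each array, other centring, cyclic loess, a filter on dim probe sets, the mean over probe sets, an intensity trend with robust variances, other thresholds, and the methods' t-test. The unadjusted t-test, the probe sets without _x_at and the ribosomal protein lists under all alternatives were added after seeing the data.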

Additional observations from a re-analysis of the deposited data

How the results depend on the processing

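Leaving out each array in turn, 5.73% to 6.84% of all genes were called lower. Genes called lower numbered 12 to 17 of the 41, with 2 to 4 for the processome, 1 to 2 for 60S assembly, and 1 to 8 for mitochondrial ribosomal proteins. The values 4, 2 and 8 came without DTP array 3. Without DTP array 1 or parental array 3, EXOSC1 was no longer called. Of the 30 genes that fell on the adjusted p, EXOSC3 and RRP12 did not pass it without some single arrays (limma adjusted p up to 0.13 and 0.065). Under some of the other alternatives POLR1C, POLR1E, NOP14, UTP4, UTP15, TSR1, PES1, NCL, EXOSC1 and EXOSC7 did not pass it either.

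With each array centred on the ribosomal proteins of the cytosol, 8 genes were called lower (polymerase I 1, 60S assembly 0, exosome 2), with 1 mitochondrial ribosomal protein lower and 12 probe sets lower. Of all genes 4.67% were called lower in that setting. Centring on hybridization spike-ins set the median of all genes at 0.10 in place of -0.05. There 795 of all genes and 7 of the 41 were called lower (polymerase I 1, snoRNP 1, 60S assembly 0, exosome 2), with 1 other pathway gene higher, 0 cytosolic and 1 mitochondrial ribosomal proteins lower, and 9 probe sets lower. Either centring adds 1 constant per array to every gene, so it cannot change the distance between the 41 genes and the median of all genes. Of all called genes 56.9% were higher as deposited, 68.6% under the first centring and 74.2% under the second. POLR1B, NOP58, WDR12, EXOSC1 and EXOSC9 were lost under both, and NOLC1 under spike-in centring.

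With cyclic loess 1 mitochondrial ribosomal protein was called lower. Without dim probe sets 1 cytosolic ribosomal protein and 1 probe set of the 41 genes were called higher. In the mean of all probe sets, where POLR1B, WDR12 and EXOSC1 were not called, polymerase I had 1 and 60S assembly 0 called lower, 1 other pathway gene was higher, and mitochondrial ribosomal proteins had 1 lower and 0 higher. Genes with 1 probe set keep their fold change in this mean, so it cannot test their calls. On the adjusted p alone, 4754 of all genes were lower and 4043 higher, and 30 of the 41 were lower (polymerase I 5, processome 9, 60S assembly 4, nucleolar proteins 2). Other pathway genes were then 58 lower and 10 higher, cytosolic ribosomal proteins 16 lower, mitochondrial ones 45 lower and 4 higher, and probe sets 53 lower. At a fold over 2, 431 of all genes were lower and 679 higher. Of the 41 genes 1 was lower, in the exosome, with 0 in every other role. The same threshold left 2 other pathway genes lower, 0 cytosolic ribosomal proteins lower and 1 higher, 1 mitochondrial one lower and 0 higher, and 1 probe set lower and 1 higher. With the methods' t-test after Benjamini-Hochberg 0 cytosolic ribosomal proteins were lower.

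Signs turned for genes near 0. NHP2 had a log2 fold change of -0.013 without DTP array 3 and of -0.0058 without parental array 3, in a range of -0.013 to 0.048 over all arrays left out. Under ribosomal protein centring RRP9 had 0.048, RRP1B 0.039, NPM1 0.0047 and EXOSC2 0.023. Under spike-in centring POLR1A had 0.030, UBTF 0.024, RRP9 0.10, RRP1B 0.092, NPM1 0.058, EXOSC2 0.076, EXOSC4 0.046 and EXOSC10 0.0070. In the mean of all probe sets RRP12 had 0.0030 and EXOSC1 0.011. The turns under both centrings follow from the same shift of every gene, and those in the mean from other probe sets of the gene. The turns of NHP2 follow from leaving out its highest DTP value (12.79, DTP array 3) or its lowest parental value (12.66, parental array 3).

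The other 348 of 408 counts stayed within 1.5 times. Same-numbered arrays did not deviate together (r -0.12, 0.02 and -0.06 across probe sets), and no array correlated best with its own number. These values show no pairing by number, but with 3 arrays per group they cannot exclude one. With a replicate block 13 of the 41 genes were called lower and 1 higher, as without it. Signal over background cannot be read from RMA values, and folds of dim probe sets understate change.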

Other observations

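The ribosomal protein genes named here are the 6 that were called, picked out after their values were seen. RPS27L, a paralogue of the ribosomal protein gene RPS27 known as a p53 target, had log2 values of 12.42, 12.39 and 12.52 in DTPs, against 10.96, 10.93 and 11.02 in parental cells. The groups were far apart, and RPS27L was 2.77-fold higher (log2 fold change 1.47 ± 0.07 SE, limma adjusted p = 2.86e-09). RPL36A was 1.92-fold higher on a probe set below the median brightness. RPL27A was 1.62-fold lower on its 1 probe set, and was not called under spike-in centring or with the methods' t-test after Benjamini-Hochberg.

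MRPS10, a protein of the small mitochondrial ribosomal subunit, had log2 values of 10.39, 10.39 and 10.65 in DTPs, against 11.74, 11.82 and 11.75 in parental cells. All DTP arrays were lower, by 2.45-fold (log2 fold change -1.29 ± 0.08 SE, limma adjusted p = 5.07e-08). MRPS31 was lower by little more than the fold minimum (log2 fold change -0.59). MRPL52 was 1.56-fold higher, but was not called in the mean of its 2 probe sets.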
